A study of Caenorhabditis elegans with 8 samples.

Results

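The genes described here carry the names that *C. elegans* nomenclature gives to the serpentine chemoreceptors, and they were detected in whole embryos. A transcript was taken when its gene symbol was sr, 1 or 2 further letters, a hyphen and a number, and when it had at least 10 raw counts in at least 4 of the 8 libraries. Of 50606 transcripts in the count tables, 14420 reached that minimum of counts, and 203 of these had such a symbol. The symbol pattern alone did not define a receptor. In 159 of the 203 transcripts, from 159 genes, the letters were those of a serpentine receptor class, and these 159 are called receptors below. The other 44 transcripts, from 43 genes, carry letters of other gene classes that meet the same pattern, and they are counted apart throughout. This separation used the class name and no protein sequence. Because raw counts in the same libraries chose the members, which genes were detected is a description and was not tested.

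Serpentine chemoreceptors are predicted membrane proteins that cross the membrane several times and couple to G proteins. In *C. elegans* they form one of the largest groups of gene families in the genome, and many are transcribed in ciliated sensory neurons, where those with a known ligand sense odorants or pheromones. The families are grouped by sequence into the Str superfamily (here srd, srh, sri, srj, srm and srn), the Sra superfamily (sra, srab, srb and sre) and the Srg superfamily (srg, srt, sru, srv, srx and srxa), with solo families beside them (srbc, srr, srsx, srw and srz). Genes of the str family itself do not meet the symbol pattern. They are therefore missing from the Str superfamily and from every count of receptors below. Most are annotated from sequence alone, so that no individual function is given below for the majority of members.

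Embryos of the ztf-11 KD group were compared with embryos of the control group, with 4 libraries from separate cultures in each. In ztf-11 KD, the mothers had been fed bacteria that make double-stranded RNA against *ztf-11*, which encodes a zinc-finger transcription factor of the Myt1 family. In the control, the bacteria carried the empty vector L4440. Both groups shared one strain, TV23837, which carries *ztf-11(wy1100)*, a *ztf-11::gfp* allele between loxP sites, the RNAi-hypersensitive allele *eri-1(mg366)* and the transgenes *oxIs322* and *ynIs49*. Synchronised larvae of both groups were fed for 64 h at 20 °C with 1 mM IPTG, which induces the double-stranded RNA, embryos were released from the adults by bleaching, and they were left in M9 buffer for 3 h to develop towards gastrulation. RNA came from the whole embryo, so that a lower level cannot be told apart from fewer cells that express the gene, and all tissues contributed. The comparison addresses which transcripts depend on *ztf-11* in the embryo, and here it was read for the receptors.

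Each library held between 39343105 and 45609675 counts. Within a group, the chi-square of the counts per degree of freedom was at least 33.7 for every pair of libraries, where counting error alone gives about 1, so that no library was a copy of another. The first principal component held 54.7% of the variance, and control replicate 2 stood farthest out on it. The ztf-11 KD libraries were at -35.5, -62.1, 38.0 and -83.3 on this component, and the control libraries at 15.3, 116.0, -38.8 and 50.4. The groups therefore overlapped on it. Levels are given in counts-per-million units (CPM), scaled for library size and composition. The *ztf-11* transcript itself was at 9.42, 11, 14.7 and 9.98 CPM in the ztf-11 KD libraries, against 36.6, 68.4, 31.2 and 40.9 CPM in the control libraries. All 4 ztf-11 KD libraries lay below all 4 control libraries. The group means were 11.3 ± 2.39 and 44.3 ± 16.6 CPM (SD, n = 4 each), which is 74.5% lower in ztf-11 KD. The exact two-sided permutation test gave p = 0.029, the smallest value that 4 against 4 allows, and the adjusted p over all transcripts was 0.262 with edgeR's quasi-likelihood test and 4.9e-08 with DESeq2.

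The 44 transcripts of other classes carried most of the counts. They held 94.4% of the counts of the 203 transcripts, and *srlf-1* alone held 46.1%. Their classes were srlf (19 transcripts), srp (6, the serpin protease inhibitors), srdf, srf and srpr (3 each, the last being RNAs of the signal recognition particle), srgp (2 transcripts of *srgp-1*, a Slit-Robo GTPase-activating protein), srpa (2, protein subunits of the signal recognition particle), srsy (2), *src-2* (a kinase of the Src family), *srrt-1* (a Serrate homolog), *srdh-1* and *srfb-1*. Their mean levels ran between 0.426 and 1466 CPM with a median of 12.9 CPM, beside 11.2 CPM for all transcripts tested.

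**Figure D1:**
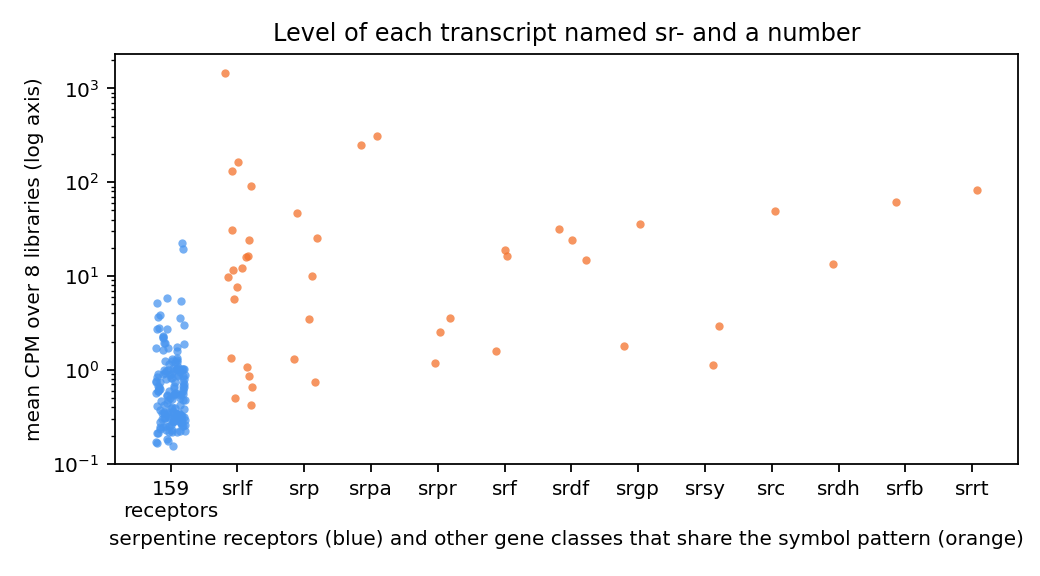
Mean level over the 8 libraries (CPM, log axis) of each of the 203 transcripts whose symbol met the pattern, with 1 point per transcript; the 159 serpentine receptors are in blue at the left and the 44 transcripts of other gene classes in orange, 1 column per class. The receptors centre on 0.569 CPM and the other classes on 12.9 CPM.

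Detection of receptors was sparse compared with other genes. Of 1230 receptor transcripts with a symbol, 159 (12.9%) reached 10 counts in 4 libraries, beside 27.5% of all transcripts with a symbol, and 400 receptor transcripts (32.5%) had no count in any library, which does not show that they are not expressed. The srr family had the highest detected share, with 5 of 10 transcripts (50.0%). It was followed by sre with 15 of 57 (26.3%), sri with 16 of 66 (24.2%) and srg with 11 of 58 (19%). At the other end, srbc had 4 of 81 (4.94%), srj 3 of 48 (6.25%), srw 9 of 114 (7.89%) and srz 6 of 65 (9.23%). The single srn transcript was not detected. The largest number of members came from srh, the family with the most annotated transcripts, with 28 of 240 (11.7%). By superfamily the detected share was 18.5% in Sra (25 of 135), 13.5% in Srg (46 of 340), 13.5% in Str (60 of 446) and 9.06% in the solo families (28 of 309).

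**Figure D2:**
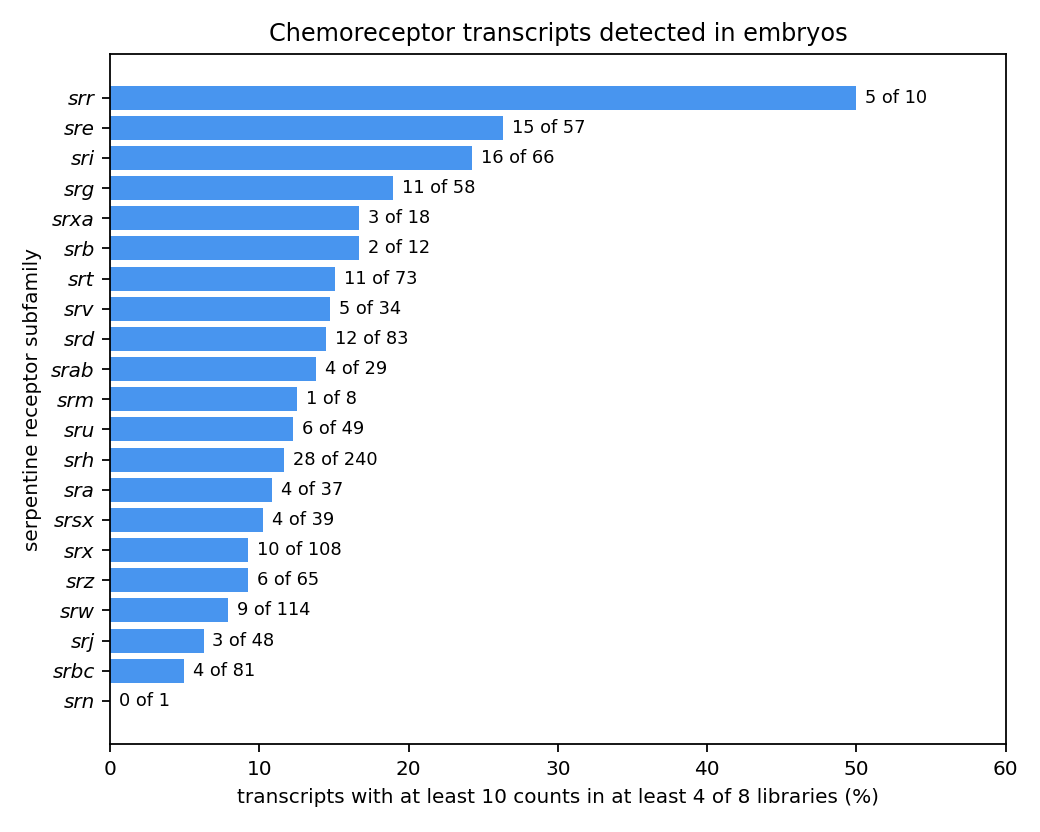
Receptor transcripts that reached 10 counts in at least 4 of 8 libraries, as a percentage of the annotated transcripts of each subfamily, with the number detected of the number annotated beside each bar. The srr, sre and sri families have the highest shares (50.0%, 26.3% and 24.2%), and srn, with 1 transcript, has none.

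The minimum of counts decided membership for many receptors. Only 51 of the 159 had 10 counts in all 8 libraries. The 33 that had it in exactly 4 libraries averaged between 6.63 and 23.9 counts, with a median of 11.6, and the 54 receptor transcripts left out with 3 such libraries averaged between 4.75 and 16.6 counts, with a median of 7.94. By group, 44 receptors reached it in more ztf-11 KD libraries, 31 in more control libraries and 84 in as many of each. 1 receptor, *sru-47*, reached it only in ztf-11 KD libraries and 0 only in control libraries.

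Members were spread over all 6 chromosomes. Chromosome V held 86 of the 159 (54.1%), beside 68.2% of all receptor transcripts, so that 10.3% of its 839 receptor transcripts were detected. Chromosome II held 38 members (23.9%), beside 13.1% of all receptor transcripts, with 23.6% of its 161 detected. Chromosome IV had 16 of 141 detected, chromosome III 7 of 29, and chromosomes I and X 6 each, of 32 and 28. Neighbouring receptor genes often descend from local duplications, and 27 members lay in 12 runs in which at most 1 gene stood between one member and the next. The longest were *sri-28*, *sri-29*, *sri-30* and *sri-31* on chromosome II and *srh-61*, *srh-69* and *srh-70* on the same chromosome. Genes of such runs can share sequence, and uniquely mapped reads may be divided unevenly among them.

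Most receptors were at the edge of detection. The mean over 8 libraries was below 1 CPM for 118 of the 159, between 1 and 5 CPM for 36 and at or above 5 CPM for 5. The median receptor had 0.569 CPM, or 24.1 counts per library, and 47 receptors had 0 counts in at least 1 library. The 5 highest were *srv-1* (22.3 CPM), *srr-6* (19.3 CPM), *srw-86* (5.89 CPM), *srd-32* (5.46 CPM) and *srx-45* (5.15 CPM). Per kilobase of transcript the order of the leading 3 was the same, with 16.5 CPM per kb for *srv-1*, 12.2 for *srr-6* and 9.86 for *srw-86*, and *srh-171*, *srx-45*, *srt-63* and *srd-32* came next at 4.11, 4.09, 3.95 and 3.85 CPM per kb. The annotated model of *srw-86* is short, with 273 coding bases of 597, beside 924 coding bases for *srv-1* and 1230 for *srr-6*. Whether *srw-86* encodes a whole receptor is not known from these data.

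In the remaining families the highest member was lower. In CPM over the 8 libraries, it was *srh-171* for srh (3.85), *srt-63* for srt (3.71), *srm-1* for srm (3.55), *sru-20* for sru (3.02), *sre-23* for sre (2.72) and *srg-7* for srg (2.32). The leading members of sra, sri, srb, srab and srsx, *sra-37*, *sri-43*, *srb-16*, *srab-4* and *srsx-19*, had 1.71, 1.34, 1.30, 1.29 and 1.17 CPM. In srz, srxa, srbc and srj no member averaged 1 CPM, and the leading ones were *srz-63* (0.808), *srxa-8* (0.590), *srbc-64* (0.552) and *srj-24* (0.295).

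A part of the low levels could not be assigned to the receptor with certainty. The exons of 40 receptors overlap those of another gene in the WBcel235 annotation, on the opposite strand for 27 and on the same strand for 14, with 1 receptor in both sets. The strand setting of the counting is not given in the sources used here. The overlapping gene had the higher mean count in 19 cases, over 10 times higher in 10 of them, and 6 of the 40 had a partner for which no count was matched. *srv-2*, with a mean of 31.8 counts, overlaps C14A4.9 with 11499 counts, *sre-45* (11 counts) overlaps *snx-14* (5822 counts), and *sre-23* (115.1 counts) overlaps *nol-16* (2693 counts). *srv-1* overlaps *zak-1* on the opposite strand, for which no count was matched. Whether the counting told reads of this pair apart is not known. *srr-6*, the next highest receptor, overlaps no other gene.

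Summed over the 159 receptors, the level was 205.8, 204.2, 149.2 and 250.0 CPM in the ztf-11 KD libraries, against 161.0, 107.3, 206.7 and 136.2 CPM in the control libraries. The groups overlapped: ztf-11 KD replicate 3 lay below control replicates 1 and 3. The highest sum (ztf-11 KD replicate 4) and the lowest (control replicate 2) came from the libraries at opposite ends of the first principal component. The part of that component in the receptor sums was not tested. The means were 202.3 ± 41.3 and 152.8 ± 42.1 CPM (SD, n = 4 each), a ratio of 1.32 that was given no test because the members were chosen on these libraries. A small number of genes weighed on it, since *srv-1* and *srr-6* together held between 13% and 28.9% of the sum. Without both, the means were 148.5 ± 32.2 and 123.2 ± 30.7 CPM, a ratio of 1.21. By superfamily, the ztf-11 KD and control means were 22.1 ± 6.24 and 18.6 ± 6.01 CPM for Sra, 71.3 ± 14.4 and 54 ± 10.2 CPM for Srg, and 56.3 ± 9.48 and 49.4 ± 14.7 CPM for Str. The solo families had the widest ratio, 1.71, with 52.6 ± 12.6 CPM in ztf-11 KD and 30.8 ± 13.3 CPM in the control. It rested on *srr-6* and *srw-86*: the ratio was 1.4 without *srr-6* and 1.17 without both, with 17.8 ± 5.47 CPM in ztf-11 KD and 15.2 ± 4.97 CPM in the control.

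**Figure D3:**
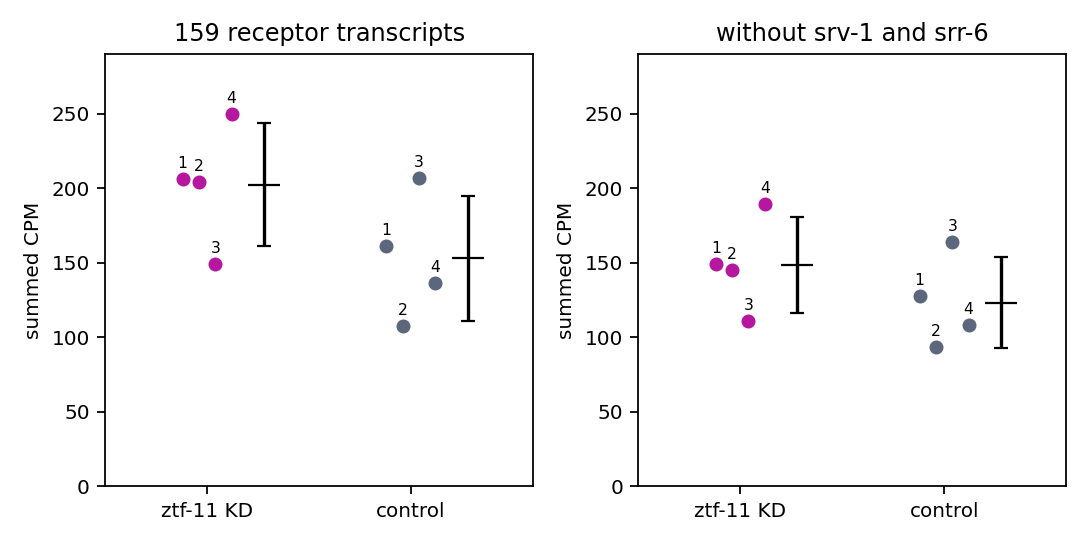
Summed level in each library (CPM) of the 159 receptors (left) and without *srv-1* and *srr-6* (right), with 1 numbered point per library and the mean and SD of each group of 4 in black. With all receptors, the ztf-11 KD libraries lie between 149.2 and 250.0 CPM and the control libraries between 107.3 and 206.7 CPM, so that the groups overlap.

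The receptors also differed between libraries of one group. In ztf-11 KD, replicate 4 had the highest CPM of its group for 73 of the 159 receptors and replicate 3 the lowest for 81. In the control, replicate 3 was highest for 67 and replicate 2 lowest for 70. The number of members at 10 counts or more was 123, 132, 103 and 144 in the ztf-11 KD libraries, against 130, 98, 146 and 108 in the control libraries. Within the control group alone, 99 receptors had a highest library over 4 times the lowest. The median dispersion on the scale of a coefficient of variation was 0.713 for the receptors tested, beside 0.325 for all transcripts.

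Summed over each list, pan-neuronal, muscle and intestinal transcripts moved with the same libraries, and epidermal transcripts did not. The summed level of 13 matched pan-neuronal genes was 222.9, 287.0, 162.6 and 319.2 CPM in the ztf-11 KD libraries, against 183.5, 107.7, 222.0 and 150.0 CPM in the control libraries, with *unc-18*, *rgef-1* and *unc-31* at 0. As with the receptors, the lowest sum was that of control replicate 2 and the highest that of ztf-11 KD replicate 4. *egl-21* alone held 135.6, 196.7, 85.6 and 224.8 CPM of this sum in ztf-11 KD, and 106.2, 48.3, 142.3 and 75.7 CPM in the control. The next highest gene, *unc-33*, did not follow it, at 52.0, 47.1, 52.8 and 37.2 CPM in ztf-11 KD, against 50.4, 43.2, 40.7 and 51.3 CPM in the control. Muscle genes (10 matched, *lev-11* at 0) summed to between 5034 and 10563 CPM in ztf-11 KD and between 3016 and 5928 CPM in the control. Intestinal genes (8 matched) summed to between 1594 and 3322 CPM and between 820.5 and 1885 CPM. Most of the intestinal sum was *act-5* (ztf-11 KD and control means 2116 and 973 CPM) and *vha-6* (478 and 246 CPM). By contrast, *elt-2* (67.3 and 67.5 CPM) and *ges-1* (42.6 and 44.1 CPM) were nearly level, and *end-1*, *end-3* and *elt-7* had the lower mean in ztf-11 KD. The germline and maternal sum (9 matched, *pgl-1* at 0) ran opposite to the pan-neuronal, muscle and intestinal sums. It was 339.7 to 453.3 CPM in ztf-11 KD and 391.2 to 961.5 CPM in the control, the highest value being that of control replicate 2. Epidermal genes (12 matched, *elt-1* and *elt-3* at 0) summed to 3399, 2901, 3783 and 2353 CPM in ztf-11 KD, against 3720, 2488, 2476 and 3375 CPM in the control, highest in ztf-11 KD replicate 3 and lowest in ztf-11 KD replicate 4, which is the reverse of the receptors in that group. Of the genes tested, all 8 pan-neuronal and all 8 muscle genes had a log2 fold change above 0 (medians 0.53 and 0.87), 3 of 8 intestinal and 3 of 8 epidermal genes did (medians -0.03 and -0.02), and 0 of 8 germline genes did (median -0.52). At an unadjusted p under 0.05 (edgeR) there were 7 of 8 muscle and 3 of 8 intestinal genes, and none of the other 3 lists. All of these were higher in ztf-11 KD, beside 8.8% of all transcripts in that direction. The groups overlapped for every gene tested in these lists, while 6.07% of all transcripts had groups without overlap. edgeR called none of these genes, while DESeq2 called 4 muscle and 2 intestinal genes, all higher in ztf-11 KD, beside 2.82% of all transcripts in that direction. The part of these tissue differences in the receptor levels was not tested.

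Against the control, none of the 154 receptors that entered the fit passed the test. 0 were called at an adjusted p under 0.1 with edgeR's quasi-likelihood test, as were 0 of all 14328 transcripts tested (0%). At an unadjusted p under 0.05 there were 7 receptors (4.55%), beside 12.8% of all transcripts, and all 7 had the higher mean in ztf-11 KD, beside 8.8% of all transcripts in that direction. None was lower at that level, beside 3.99% of all transcripts. This count depended on single libraries: it was 18 without control replicate 3, 15 without ztf-11 KD replicate 3, and 4 without any one of ztf-11 KD replicates 1 and 2 and control replicates 1 and 2. The share over all transcripts moved as well, to 20.4% without control replicate 3 (11.6% of receptors) and 17.5% without ztf-11 KD replicate 3 (9.55% of receptors), and was 6.05% at the lowest, without ztf-11 KD replicate 2 (2.55% of receptors). DESeq2 gave 12 receptors (7.84%, beside 15.2% of all transcripts). The log2 fold change was above 0 for 88 receptors and below 0 for 66, with a median of 0.12, beside -0.01 for all transcripts, of which 49.2% were above 0. The 4 ztf-11 KD libraries were each above every control library for 4 receptors (2.60%, beside 3.61% of all transcripts) and below them for 1 (0.649%, beside 2.46%), so that the groups did not overlap for 5 receptors (3.25%, beside 6.07%). DESeq2 called 1 receptor, *srg-34*, at an adjusted p of 0.083. It called 3.21% of all transcripts, and 2.82% in the same direction, higher in ztf-11 KD.

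The fit was imprecise for genes at this level. The median standard error of a log2 fold change was 0.75 for receptors, beside 0.29 for all transcripts. Among the 51 receptors with 10 counts in every library, 5 (9.80%) had an unadjusted p under 0.05, with 31 higher and 20 lower and a median log2 fold change of 0.19. Without the receptors whose exons overlap another gene, 115 were tested, with 67 higher, 48 lower and a median of 0.11. Of these, 5 (4.35%) had an unadjusted p under 0.05 (edgeR), beside the same 12.8%. The 38 members tested on chromosome II had a median of 0.08 and the 83 on chromosome V one of 0.05. 5 members, *srbc-58*, *sri-7*, *srt-59*, *sru-23* and *srx-13*, did not pass the filter on low counts and were not tested.

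The superfamilies had medians within 0.2 of 0, and none kept its sign when each library was left out in turn. The median log2 fold change was -0.002 in Sra (12 higher, 13 lower), 0.07 in Srg (24 higher, 19 lower), 0.19 in Str (35 higher, 24 lower) and 0.18 in the solo families (17 higher, 10 lower). Of the 7 receptors at an unadjusted p under 0.05, 4 were of the Srg superfamily, 1 of Str and 2 of the solo families. Families of at least 9 members had medians between -0.44 and 0.47. The lowest was sre, with 4 of 15 higher and a range between -2.0 and 1.06, and the highest was srd, with 9 of 12 higher. The largest family, srh, had 16 of 28 higher and a median of 0.17. In sri 9 of 15 were higher (median 0.19), in srw 7 of 9 (0.42), in srg 5 of 11 (-0.03), in srt 5 of 10 (-0.01) and in srx 4 of 9 (-0.12). Among smaller families, all 5 srr members were above 0 (median 0.51), 4 of 5 sru (0.90) and 4 of 5 srv (0.61), and 1 of 3 srj was above 0 (-0.60).

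**Figure D4:**
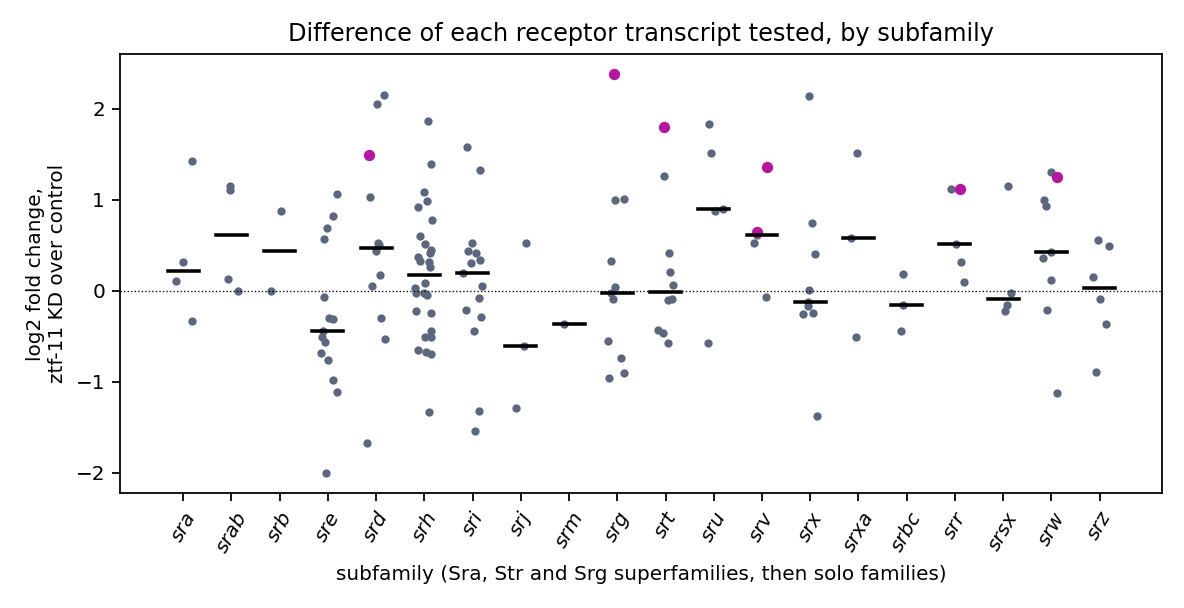
Log2 fold change (ztf-11 KD over control) of the 154 receptors tested, with 1 point per transcript, larger magenta points for an unadjusted p under 0.05, grey points for the rest and a line at the median of each subfamily. Values run between -2.0 and 2.38, and the medians of families with at least 9 members lie between -0.44 (sre) and 0.47 (srd).

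The 3 highest receptors were among the 7 at an unadjusted p under 0.05. *srv-1* was at 26.3, 33.7, 17.8 and 31.2 CPM in ztf-11 KD, against 18.7, 9.46, 22.5 and 18.9 CPM in the control. The groups overlapped through ztf-11 KD replicate 3, and the log2 fold change was 0.65 (SE 0.29, adjusted p = 0.387, edgeR). *srr-6* was at 30.5, 25.4, 20.7 and 29.4 CPM in ztf-11 KD, against 14.8, 4.51, 20.0 and 9.44 CPM in the control. The lowest ztf-11 KD library exceeded the highest control library, and the log2 fold change was 1.12 (SE 0.39, adjusted p = 0.383, edgeR). *srw-86* was at 8.88, 7.61, 3.30 and 13.4 CPM in ztf-11 KD, against 4.87, 1.57, 5.56 and 1.93 CPM in the control. Here ztf-11 KD replicate 3 lay below control replicates 1 and 3, with a log2 fold change of 1.25 (SE 0.51, adjusted p = 0.387, edgeR).

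The next 5 by level did not separate the groups. *srd-32* was at 5.54, 5.80, 5.47 and 5.40 CPM in ztf-11 KD, against 6.22, 4.91, 6.65 and 3.68 CPM in the control, with log2 fold change 0.05 (SE 0.24). The ztf-11 KD libraries were closely alike for this gene and lay within the span of the control. *srx-45* had 6.0, 5.61, 6.25 and 7.95 CPM in ztf-11 KD, against 3.08, 1.97, 6.25 and 4.13 CPM in the control, with log2 fold change 0.74 (SE 0.35, adjusted p = 0.399, edgeR). *srh-171* averaged 3.79 ± 1.46 CPM in ztf-11 KD and 3.90 ± 0.874 CPM in the control, and *srt-63* 3.79 ± 1.07 and 3.62 ± 0.889 CPM (SD, n = 4 each). *srm-1*, the only srm member, averaged 3.11 ± 1.07 CPM in ztf-11 KD and 3.99 ± 0.928 CPM in the control, with log2 fold change -0.36 (SE 0.34). For each of these 3 genes the groups overlapped.

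**Figure D5:**
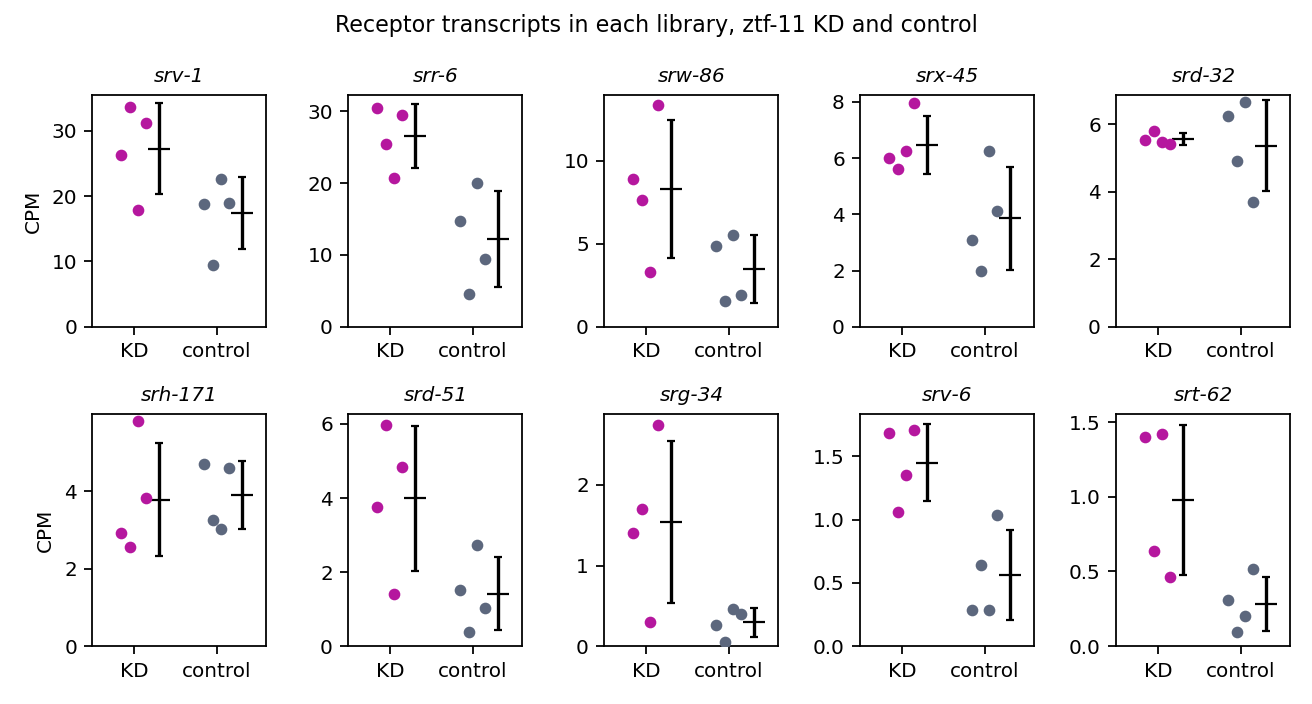
Level (CPM) in each ztf-11 KD and each control library of 10 named receptors, each on its own linear axis from 0, with 1 point per library and the mean and SD of each group in black. For *srr-6* the ztf-11 KD libraries lie at 20.7 to 30.5 CPM and the control libraries at 4.51 to 20.0 CPM, while for *srd-32* those of ztf-11 KD (5.40 to 5.80 CPM) fall inside the control span (3.68 to 6.65 CPM).

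The remaining 4 receptors at an unadjusted p under 0.05 were lower in level. *srg-34* had 55, 72, 12 and 124 counts in ztf-11 KD, against 12, 2, 21 and 16 counts in the control, or 1.54 ± 1.01 and 0.292 ± 0.184 CPM (SD, n = 4 each). It had the largest log2 fold change of all receptors, 2.38 (SE 0.78, adjusted p = 0.383, edgeR), yet ztf-11 KD replicate 3 fell inside the control span. *srt-62* had 55, 27, 57 and 21 counts in ztf-11 KD, against 14, 4, 9 and 21 counts in the control, with log2 fold change 1.80 (SE 0.66). *srd-51* was at 3.75, 5.99, 1.40 and 4.83 CPM in ztf-11 KD, against 1.51, 0.379, 2.73 and 1.04 CPM in the control, with log2 fold change 1.5 (SE 0.60). *srv-6* was at 1.68, 1.06, 1.35 and 1.71 CPM in ztf-11 KD, against 0.284, 0.640, 0.288 and 1.04 CPM in the control, with log2 fold change 1.37 (SE 0.52). Of the 4, only *srv-6* had groups that did not overlap, and the adjusted p was 0.383 for *srt-62* and *srv-6* and 0.384 for *srd-51* (edgeR).

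Receptors without overlap between the groups included 3 more. *sru-47* had 14, 10, 17 and 24 counts in ztf-11 KD, against 9, 4, 6 and 0 counts in the control, with log2 fold change 1.83 (SE 0.87). It became a member through its ztf-11 KD libraries alone, so that the minimum of counts favoured its separation. *sre-41* had 26, 32, 18 and 33 counts in ztf-11 KD, against 20, 10, 19 and 15 counts in the control, with log2 fold change 0.82 (SE 0.50), and the separation holds only after scaling for library size, at 0.450 CPM or more against 0.437 CPM or less. *sri-29* was the one receptor with all ztf-11 KD libraries below the control, at 0.153, 0.141, 0.275 and 0.221 CPM against 0.917, 0.356, 0.377 and 0.346 CPM in the control, with log2 fold change -1.32 (SE 0.62). Its neighbours on chromosome II overlapped between groups. *sri-28* averaged 0.205 ± 0.179 CPM in ztf-11 KD and 0.598 ± 0.525 CPM in the control, *sri-30* ranged from 0.300 to 2.22 CPM in ztf-11 KD and from 0.498 to 1.31 CPM in the control, and *sri-31* from 0.189 to 1.75 CPM and from 0.047 to 2.02 CPM.

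The largest fitted log2 fold changes belonged to receptors with few counts. After *srg-34*, the largest log2 fold changes above 0 were those of *srd-65* (2.15, SE 1.22), *srx-43* (2.14, SE 1.26), *srd-3* (2.05, SE 1.28) and *srh-233* (1.87, SE 0.95). For *srd-65* the value rested on 15, 10, 1 and 63 counts in ztf-11 KD, against 4, 0, 14 and 2 counts in the control, so that 1 library held most of the counts. The largest below 0 were those of *sre-31* (-2.0, SE 1.10), *srd-70* (-1.68, SE 1.24), *sri-28* (-1.54, SE 0.86), *srx-58* (-1.38, SE 1.07) and *srh-87* (-1.33, SE 0.72). *sre-31* had 0, 0, 11 and 3 counts in ztf-11 KD, against 24, 14, 11 and 12 counts in the control. Apart from *srg-34*, none of these had an unadjusted p under 0.05. *srd-70* and *srw-85* are listed under identifiers of noncoding transcripts.

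A small number of the detected receptors have a known sensory role, or are used as a marker of a neuron, in later stages. *srbc-64* and *srbc-66* encode receptors for dauer pheromone in the ASK neurons, *srx-43* encodes an ascaroside receptor of the ASI neurons, and *sra-11* is used as a marker of the AIY interneurons. *srbc-66* and *sra-11* were chosen for this account after their values were seen. *srbc-64* was at 0.153, 0.306, 1.65 and 0.244 CPM in ztf-11 KD, against 0.852, 0.285, 0.532 and 0.395 CPM in the control. *srx-43* had 16, 12, 0 and 43 counts in ztf-11 KD, against 2, 0, 11 and 3 counts in the control. *srbc-66* lay between 0 and 0.330 CPM in ztf-11 KD and between 0 and 0.395 CPM in the control, and *sra-11* between 0.376 and 0.966 CPM and between 0 and 0.963 CPM. The groups overlapped for each of these 4 genes.

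Genes that act with chemoreceptors were read from a list of 30 signal transduction genes, of which 28 had a matching transcript and 20 were tested. 14 had a log2 fold change above 0 and 6 below, with a median of 0.26, and none was called. *egl-4*, a cGMP-dependent protein kinase of sensory neurons, has 7 transcripts in the counts. Only the one with the highest mean count was read, as for every listed gene, so that the values do not give the level of the whole gene. This transcript was at 0.638, 1.01, 0.450 and 1.15 CPM in ztf-11 KD, against 0.087, 0.166, 0.332 and 0.247 CPM in the control. It was the 1 of 20 (5%) at an unadjusted p under 0.05, beside 12.8% of all transcripts, and the 1 whose groups did not overlap, beside 6.07%, with log2 fold change 1.95 (SE 0.61, adjusted p = 0.380, edgeR). *odr-3*, a G protein alpha subunit of olfactory neurons, was at 23.0, 21.1, 13.4 and 20.7 CPM in ztf-11 KD, against 18.1, 9.34, 13.6 and 13.9 CPM in the control, with log2 fold change 0.51 (SE 0.25). 4 genes of the list, *daf-11*, *gpa-14*, *tax-6* and *odr-4*, had no counts in any library. A 0 in these counts is not a sign of absent expression, since *lev-11*, *elt-1* and *pgl-1*, which embryos express, were at 0 as well.

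Genes of the ciliated endings that house receptors ran in the other direction. All 14 tested genes of the list had a log2 fold change below 0, with a median of -0.32, and 4 (28.6%) had an unadjusted p under 0.05, beside 3.99% of all transcripts in that direction. The groups overlapped for each of the 14 genes, while 2.46% of all transcripts had every ztf-11 KD library below the control. The 2 with the smallest p were *osm-5* (log2 fold change -0.43, SE 0.15) and *bbs-1* (-0.46, SE 0.17), which act in intraflagellar transport. Their summed level was 307.5, 322.5, 326.3 and 314.1 CPM in ztf-11 KD, against 446.2, 296.8, 392.8 and 421.9 CPM in the control. Control replicate 2 lay below the ztf-11 KD libraries and the other 3 control libraries above them. Of the transcription factors of sensory neurons, 8 of 15 matched were tested, with 3 above 0, 5 below and a median of -0.12. None of the genes in these lists was called.

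Of the 44 transcripts of other classes, 12 (27.3%) had an unadjusted p under 0.05, beside 12.8% of all transcripts, with 7 higher and 5 lower in ztf-11 KD. edgeR called 0 of the 44, and DESeq2 called 5, beside 3.21% of all transcripts. The 3 signal recognition particle RNAs lay below every control library in each ztf-11 KD library, beside 2.46% of all transcripts. *srpr-2.2* was at 0.128, 0.731, 0.15 and 0.288 CPM in ztf-11 KD, against 6.33, 1.47, 7.11 and 4.10 CPM in the control, with log2 fold change -3.86 (SE 0.68, adjusted p = 0.359 with edgeR and 2.2e-06 with DESeq2). *srpr-2.1* and *srpr-1.2* had log2 fold changes of -3.44 (SE 0.69) and -2.40 (SE 0.54). Such RNAs have near-identical copies and lack a poly(A) tail, so that their counts after poly(A) selection and unique mapping are uncertain.

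In the srlf class, 18 of 19 transcripts (94.7%) had a log2 fold change above 0, beside 49.2% of all transcripts, and the median was 1.32. 6 of the 19 (31.6%) had an unadjusted p under 0.05 (edgeR), all higher in ztf-11 KD, beside 8.8% of all transcripts in that direction. The groups did not overlap for 2 of the 19 (10.5%), both higher in ztf-11 KD, beside 3.61% of all transcripts in that direction. The median standard error of a log2 fold change in this class was 0.82, beside 0.29 for all transcripts. *srlf-32* was at 17.1, 17.8, 9.10 and 21.9 CPM in ztf-11 KD, against 8.63, 4.51, 9.44 and 4.94 CPM in the control, with log2 fold change 1.26 (SE 0.33). The most abundant, *srlf-1*, was at 1629, 1711, 1442 and 1604 CPM in ztf-11 KD, against 1337, 1318, 1393 and 1294 CPM in the control, without overlap and with log2 fold change 0.26 (SE 0.10). *srlf-30* ranged from 3.45 to 88.4 CPM in ztf-11 KD and from 0.142 to 12.9 CPM in the control, with the groups overlapping through ztf-11 KD replicate 3 and control replicate 3. The serpin *srp-6* averaged 62.1 ± 19.2 CPM in ztf-11 KD and 32.7 ± 14.3 CPM in the control (SD, n = 4 each), with log2 fold change 0.93 (SE 0.34). *srrt-1* was lower, at 64.3, 67.4, 82.6 and 55.1 CPM in ztf-11 KD, against 77.4, 149, 80.2 and 81.5 CPM in the control (log2 fold change -0.53, SE 0.23).

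Outside the members, the transcripts whose log2 CPM followed the summed receptor level most closely over the 8 libraries were ZC416.2 (Pearson's r = 0.995), Y39B6A.5 (0.995), C37C3.12 (0.993), Y106G6D.8 (0.992) and *col-33* (0.992). They were the highest of many transcripts over 8 points that share depth and scaling, and the values are a description.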

How the data were processed

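RNA of whole embryos was sequenced in 8 libraries, 4 per group, from TruSeq stranded mRNA kits. The deposited raw counts per RefSeq transcript were made by the authors with Tophat2 against ce10 and featureCounts on uniquely mapped reads. Versions, strand setting and the treatment of read mates are not given in the sources used here. Of 42449 values from 1 to 20, 59.3% were even, and 2 (7241 values) was more frequent than 1 (5065 values), so that counts may include both mates of a fragment.

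Identifiers were matched to symbols through RefSeq gene names of WBcel235. 45715 of 50606 transcripts had a symbol, and these held 87.7% of the counts. The WBcel235 annotation, which is not the build of the files, gave only chromosomes, neighbours, overlaps and lengths. The 203 members and the gene lists were chosen with earlier results of these data known. A listed gene was read from its transcript with the highest mean count. Receptor classes were separated from other gene classes by subfamily name.

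All transcripts passing filterByExpr (minimum count 10) were fitted in edgeR 4.0.16 (R 4.3.3) with TMM scaling, the robust quasi-likelihood test and condition as the only term. P-values were adjusted by Benjamini-Hochberg over 14328 transcripts, with a threshold of 0.1. CPM used the TMM-scaled library sizes. Standard errors (SE) were derived from each log2 fold change and its F statistic. These p-values set the difference between the groups against the spread between the 4 cultures of each group, estimated with information from all transcripts. Receptors were named if among the 8 highest in mean CPM, past the threshold, at an unadjusted p under 0.05, without overlap between the groups, among the 5 largest changes in each direction, or highest in their subfamily. Every member of another class could be named, as could the 2 genes of each list with the smallest p. Alternatives were DESeq2 1.42.0, other scalings and filters, a replicate block, other detection minimums and leaving out each library. The fit was tested on simulated data.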

Additional observations from a re-analysis of the deposited data

Results flagged for a closer look

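For 7 genes, 1 library of a group of 4 lay far from the other 3 by Dixon's gap criterion, which is 6.73% of the groups examined (52 genes or sums, 2 groups each), and chance gives about 5%. Among receptors, these were *srbc-64* in ztf-11 KD replicate 3 (1.65 CPM, the others 0.153 to 0.306), *srx-58* in ztf-11 KD replicate 4 (0.908 CPM, the others 0 to 0.153), *sri-29* in control replicate 1 (0.917 CPM, the others 0.346 to 0.377), *sri-43* in control replicate 3 (4.34 CPM, the others 0.437 to 0.914) and *srd-3* in control replicate 3 (0.665 CPM, the others 0 to 0.0437). Among other classes, they were *srlf-13* in control replicate 3 (0.354 CPM, the others 0 to 0.0494) and *srrt-1* in control replicate 2 (149 CPM, the others 77.4 to 81.5).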

How the results depend on the processing

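No receptor was called under any alternative that used edgeR, including leaving out each library, and DESeq2 called 1 at an adjusted p under 0.1 and 0 at 0.05 (the threshold of 0.05, the comparison without overlapping genes and the solo families without their leading genes were chosen after seeing the data). Over all transcripts the count was 433 with DESeq2, 6 with no filter on low counts and 0 to 3 with 1 library left out. Of other classes 5 were called with DESeq2, 1 with no filter and 0 to 1 with 1 library left out. The log2 fold change of *ztf-11* was -2.0 with DESeq2 and -1.98 with no filter (adjusted p 0.0031), both past the threshold, and -2.13 to -1.70 with 1 library left out, with adjusted p 0.051 without control replicate 2 and 0.086 without control replicate 3.

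The number of receptors detected was 246 with a minimum of 5 counts, 88 with 20 counts and 51 with 10 counts in all 8 libraries. The receptor median of 0.12 was 0.05 to 0.27 with 1 library left out, 0.10 with DESeq2, and 0.20 when at least 10 counts were required in every library, where 9 of 51 receptors (17.6%) had an unadjusted p under 0.05, beside 14.1% of all transcripts. The summed ratio of 1.32 was 1.20 without control replicate 2 and 1.5 without control replicate 3. With 10 counts required in every library the medians were 0.40 for Sra, -0.56 for srg and 0.094 for the other classes. Left-out libraries gave medians of -0.29 to 0.12 for Sra, -0.04 to 0.44 for Srg, -0.04 to 0.40 for Str, -0.15 to 0.34 for the solo families, 0.10 to 0.74 for srd, -0.51 to -0.20 for sre, -0.36 to 0.16 for srg, -0.01 to 0.26 for srh, -0.24 to 0.67 for sri, -0.07 to 0.40 for srt, 0.11 to 0.77 for srw and -0.42 to 0.29 for srx. Of 40 named genes, 3 changed sign with 1 library left out: *srd-32* (-0.093 to 0.15), *srh-171* (-0.33 to 0.10) and *srt-63* (-0.12 to 0.20).

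The replicate numbers did not pair the libraries: deviations of same-numbered libraries correlated at 0.005, -0.30, -0.64 and -0.21. A replicate block gave a receptor median of 0.29, 4 receptors at an unadjusted p under 0.05, 708 of all transcripts at that level, and 0 calls.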
